A study of Bos taurus with 30 samples.

Results

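The miR-183, miR-96 and miR-182 cluster is a group of 3 microRNAs (miRNAs), bta-miR-182, bta-miR-183 and bta-miR-96, that are transcribed together from neighbouring hairpins. All 3 were taken by name from a table of 1030 mature bovine miRNAs, in which each has 1 entry. RefSeq lists their precursor genes as MIR182 (gene identifier 100313365), MIR96 (100313393) and MIR183 (100313256), and all 3 names were matched. In the ARS-UCD2.0 assembly these genes lie in that order on chromosome 4, between NRF1 and UBE2H, and overlap 0 other listed genes. Coordinates are not given because the authors aligned reads to another assembly, ARS-UCD1.2.

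The cluster is best known from sensory organs, where it is abundant in hair cells of the inner ear, photoreceptors of the retina and sensory neurons, and where mutations of miR-96 cause hearing loss. It is also abundant in endocrine tissue that includes the pituitary gland, and in many epithelia. The 3 mature miRNAs have similar but not identical seed regions, the bases with which a miRNA recognises its targets, and FOXO1 is a known target in other cell types.

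The values came from small RNA libraries of the arcuate nucleus (ARC), the region of the hypothalamus that senses metabolic signals, dissected from 30 Holstein-Friesian bull calves, with 1 library per calf. From 2 weeks of age, the 15 calves on the high plane of nutrition (HI) were offered 1.5 kg of milk replacer a day, made up to 10 litres, with free access to concentrates. The 15 calves on the moderate plane (MOD) were offered 0.5 kg of milk replacer a day in 4 litres, and 0.5 kg of concentrates. All calves were sampled at 12 weeks of age, and neither diet group carried any other treatment in the labels. The ARC lies directly above the pituitary stalk, and the samples were whole pieces of tissue, so that more cells of a type and more RNA per cell cannot be told apart.

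Levels are the authors' deposited values, in counts per 1000000 reads (CPM), for which each library size had been scaled by the trimmed mean of M-values (TMM). Reads counted on miRNAs were recovered from these values and ranged from 6291376 to 21083250 per HI library and from 7026125 to 20717302 per MOD library. For the HI calf A31979 the read step was less certain by another count of whole values, so that its reads are approximate. By the count used here, 95.5% of its low values were whole. Those under 95% were A12937 (94.5%), A93760 (94.8%) and A27864 (94.9%), whose reads are also approximate. The libraries formed 2 depth classes, 21 of up to 8988039 reads (12 HI and 9 MOD) and 9 of at least 17193358 reads (3 HI and 6 MOD). In addition, the 9 calves with the lowest animal codes (7 HI and 2 MOD) were set apart from the other 21 (8 HI and 13 MOD). Earlier results of these data had them differ in many miRNAs, which was not tested again here. A further division of the calves bears on every value of the cluster. A list of 7 pituitary and epithelial miRNAs (miR-375, miR-7, miR-141, miR-200a, miR-200b, miR-200c and miR-429), which holds no member of the cluster, had a gap of 1.95 in its mean log2 level that set 9 calves (5 HI and 4 MOD) above the other 21 (10 HI and 11 MOD). Of these 9 calves, 3 had deeper libraries and 4 were among the lowest animal codes. They are called the 9 calves above the gap, and the others the 21 calves below it. This division comes from the data and is not a group of the study, so that levels across it are given without a test.

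The cluster was detected in every calf, but at levels that differed widely between calves of the same diet. miR-182, the most abundant member, ranged from 35.3 CPM through a median of 201.2 to 31147 CPM in the 15 HI calves, and from 33.8 through 95.6 to 39239 CPM in the 15 MOD calves. The highest level was 1160 times the lowest over all 30 calves, and the ranges of the diets overlapped nearly throughout. miR-183 ranged from 6.93 through 23.5 to 3536 CPM in the HI calves and from 6.99 through 15.7 to 4964 CPM in the MOD calves, a range of 716-fold over all calves. miR-96 was much the rarest member, from 0 through 0.918 to 105 CPM in the HI calves and from 0.124 through 0.516 to 161 CPM in the MOD calves. It had 3 reads or fewer in 9 calves and 0 reads in 2 HI calves, A13745 and A37840. With 3 reads as the floor, these values allow up to 0.385 and 0.413 CPM, so that the highest level was at least 390 times the level in either calf.

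**Figure D1:**
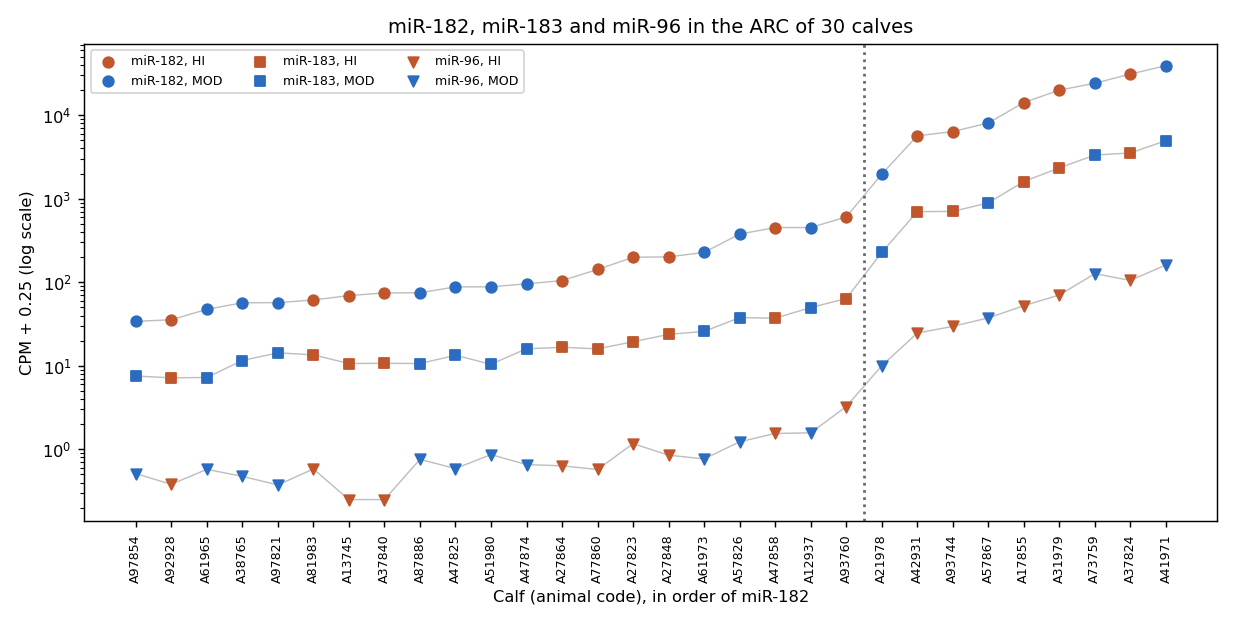
Level of each member in every calf, as CPM + 0.25 on a log axis, with calves in order of miR-182 and colour by diet. The dotted line parts the 21 calves below the gap in the list of pituitary and epithelial miRNAs, with miR-182 at 33.8 to 605 CPM, from the 9 calves above it, at 1969 to 39239 CPM, and the lines of all 3 members step up there.

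The same 9 calves were highest for all 3 members, and they were the 9 calves above the gap. In these, miR-182 lay between 1969 and 39239 CPM, against 33.8 to 605 CPM in the 21 calves below it. miR-183 lay between 227 and 4964 CPM in the 9 and between 6.93 and 63.5 CPM in the 21. miR-96 lay between 9.76 and 161 CPM in the 9 and between 0 and 2.99 CPM in the 21. The 2 sets of calves did not overlap for any member, and the lowest of the 9 exceeded the highest of the 21 by 3.25-fold for miR-182, 3.58-fold for miR-183 and 3.26-fold for miR-96. This was not particular to the cluster. The sets also did not overlap for miR-375, miR-141, miR-200a, miR-200b, miR-200c and miR-429 of the list, or for miR-199a-3p and miR-214. The share of all tested miRNAs without overlap was not counted. Of all reads on the cluster, 96.9% came from the 9 libraries and 3.09% from the other 21.

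In the MOD calf with the highest level, A41971, miR-182 was the 5th most abundant of all miRNAs, with 236926 reads or 3.07% of the library (95% exact binomial interval 3.06 to 3.08). In the HI calf with the highest level, A37824, it ranked 11th with 167573 reads. In the MOD calf with the lowest level, A97854, it ranked 271st with 260 reads. The median rank of miR-182 was 21 in the 9 calves and 210 in the 21. That of miR-183 was 72 against 318, and that of miR-96 was 244 against 559. The 3 members together took from 0.00432% (0.00386 to 0.00482) of the reads in A97854 to 3.47% (3.46 to 3.48) in A41971. Within each library, miR-182 made up 80.0% to 92.2% of the reads on the cluster, miR-183 made up 7.53% to 19.8% and miR-96 at most 0.629%. Intervals and the floor cover counting error only.

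The spread of the cluster between calves was among the widest of all miRNAs. The standard deviation of log2(CPM + 0.25) over 30 calves was 3.36 for miR-182 and 3.18 for miR-183, which ranked 3rd and 5th of the 476 miRNAs that passed the filter on low counts, against a median of 0.372. The values for miR-96, which did not pass the filter because only 12 libraries exceeded its minimum of 1.16 CPM where 14 were needed, had a standard deviation of 3.05. Below the gap the members still varied, with an SD of 1.24 on the log2 scale for miR-182 and 0.898 for miR-183 (n = 21).

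The design asks whether diet altered the cluster, and no difference was detected beyond the spread between calves. By arithmetic mean, miR-182 was at 5289 ± 9356 CPM in HI and 5005 ± 11398 CPM in MOD calves (SD, n = 15 each). For miR-183, the arithmetic means were 607 ± 1070 CPM in HI and 642 ± 1475 CPM in MOD calves, and for miR-96 they were 19.2 and 22.7 CPM. On the log2 scale, HI calves were on average higher by 0.78 for miR-182 (standard error 1.19, 95% interval -1.64 to 3.21), a fold change of 1.72. The difference was 0.62 for miR-183 (standard error 1.13, interval -1.68 to 2.91), a fold change of 1.53. For both, the adjusted p was 0.982 (limma, Benjamini-Hochberg over 476 miRNAs). For miR-96, fitted among the 863 miRNAs with a read, the difference was 0.37 (standard error 1.08, interval -1.84 to 2.58, adjusted p = 0.974, limma). Thus the order of the diets depended on the scale for miR-183 and miR-96, the arithmetic mean being higher in MOD and the log2 mean in HI. The intervals are wide enough to hold a several-fold difference in either direction.

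Of the 2 members that could be called, 0 reached both thresholds, which were 0.1 for the adjusted p and 1.5 for the fold change, as did 0 of all 476 miRNAs (0%). Before adjustment, 21 miRNAs (4.41%) had a p under 0.05, and none of them was a member. edgeR's quasi-likelihood test on recovered reads also called 0, and DESeq2 called 1 (0.21%), which was miR-2419-3p, and 0 of 863 without the filter. Regardless of p, 8 of the 476 miRNAs (1.68%) differed by more than 1.5-fold in one direction or the other, and miR-182 and miR-183 were among them, together with miR-200a, miR-200c and miR-141 of the epithelial list. The standard errors of miR-182 and miR-183 were 1.19 and 1.13, against a median of 0.134 over all tested miRNAs.

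**Figure D2:**
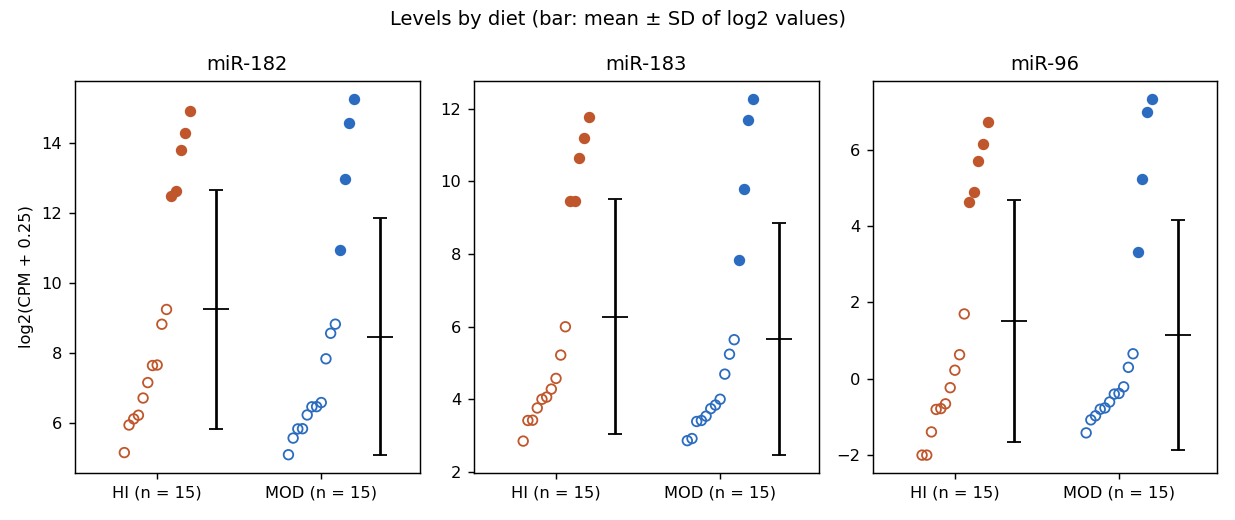
log2(CPM + 0.25) of each member in 15 HI and 15 MOD calves, with filled points for the 9 calves above the gap (5 HI and 4 MOD), open points for the other 21, and the mean ± SD of the log2 values beside each group. Both diets show the same split into a low and a high set of calves, and the diets overlap nearly throughout.

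Most of the calves of either diet lay within the range of the other. miR-182 exceeded the MOD median in 11 of 15 HI calves and the HI median in 7 of 15 MOD calves. For miR-183 these counts were 10 and 7, and for miR-96 they were 9 and 6. Two-sided permutation tests of the log2 means gave p = 0.528 for miR-182, 0.597 for miR-183 and 0.743 for miR-96.

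Diet was also compared within each division of the calves. Among the 9 calves above the gap, the difference of HI from MOD in log2 level was 0.19 for miR-182, 0.11 for miR-183 and -0.10 for miR-96 (exact permutation p = 0.857, 0.921 and 0.937, where 5 against 4 calves allow 0.0159 at the lowest). Among the 21 below the gap it was 0.40, 0.22 and -0.02 (permutation p = 0.461, 0.572 and 0.980). In the deeper libraries, the difference was 1.51 for miR-182 (exact permutation p = 0.524), 0.90 for miR-183 (p = 0.643, exact) and 0.88 for miR-96 (p = 0.643, exact). In the shallower libraries it was 0.68, 0.68 and 0.37 (exact permutation p = 0.666, 0.645 and 0.816). For the calves with other than the lowest animal codes it was 0.20, 0.03 and -0.16 (exact permutation p = 0.875, 0.981 and 0.899). For the 9 calves with the lowest codes, of which 2 were on MOD, it was 0.28, 0.40 and 0.28 (exact permutation p = 0.833, 0.833 and 0.889), and that division cannot give a p below 0.0556. The sign for miR-96 was negative in 3 of these 6 divisions, those above the gap, below the gap and with other codes.

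**Figure D3:**
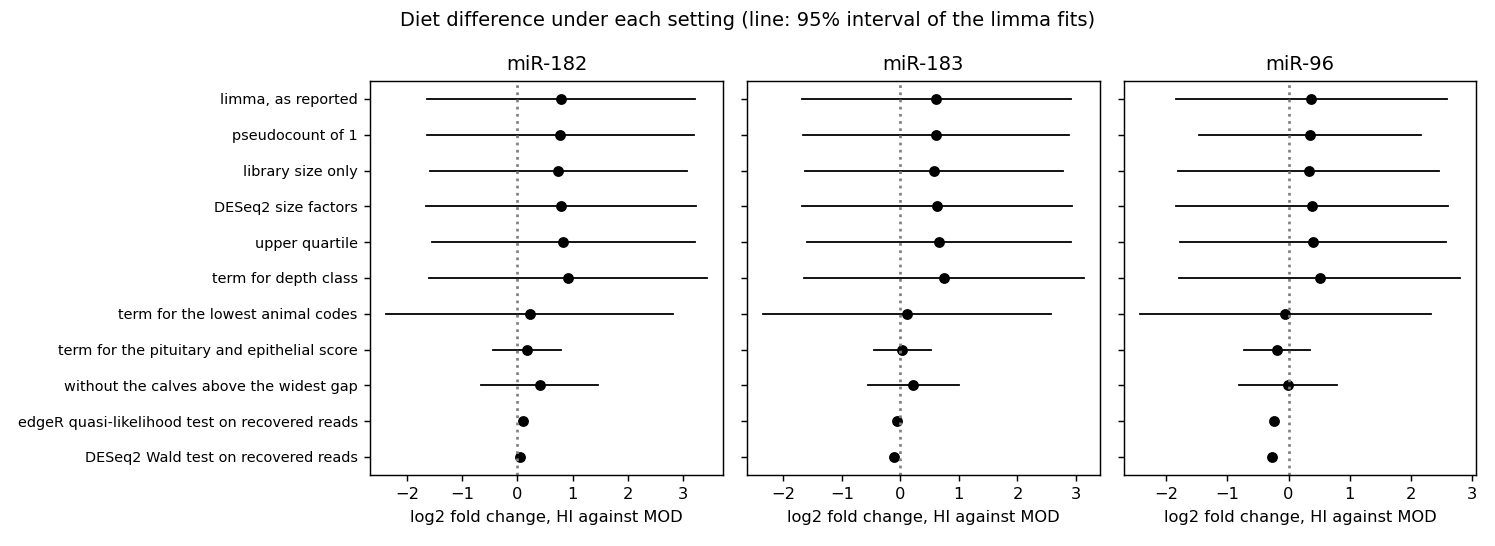
log2 fold change of HI against MOD for each member (points) under the reported limma fit and 10 other settings, with the 95% interval of each limma fit (lines; the 2 count models are drawn without one). Every interval drawn spans 0, the intervals narrow when the pituitary and epithelial list is a term or the 9 calves above the gap are left out, and the points for miR-183 and miR-96 lie below 0 in both count models.

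With the list of pituitary and epithelial miRNAs as a term in limma, the log2 difference between diets was 0.17 for miR-182, 0.03 for miR-183 and -0.19 for miR-96. With a term for the lowest animal codes, it was 0.22, 0.12 and -0.05. In edgeR's count model, which compares mean counts and not means of log2 values, it was 0.09, -0.07 and -0.24. None of these passed the thresholds.

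The ratio of members within a library does not depend on how libraries are scaled, and it was far steadier than their levels. In the 9 calves above the gap, miR-182 had 7.25 (calf A73759) to 9.04 (A57867) reads for each read of miR-183, a range of 1.25-fold, while the level of miR-182 itself ranged 19.9-fold. The ratio in A31979 was 8.53, within this range. In the 21 calves below the gap the ratio ranged 3.03-fold, from 4.04 in A97821 (95% interval from an exact binomial of the reads, 3.49 to 4.70) to 12.2 in A47858 (11.3 to 13.2). These are the extremes of the 21 calves, and their intervals, which cover counting error only, do not overlap. Pooled over libraries, it was 8.12 (8.08 to 8.16) in the 9 and 8.69 (8.44 to 8.95) in the 21, in which the calves with most reads weigh most. The pooled intervals treat reads and not calves as units, so they do not cover the spread between calves. The median over calves went the other way, at 8.66 in the 9 and 7.11 in the 21.

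miR-183 had 23.3 to 33.7 reads for each read of miR-96 in the 9 calves. Below the gap the ratio in a calf rests on few reads, such as 226 over 2 in A97821, so that reads were also pooled there. The pooled ratio was 30.5 (26.1 to 35.7) in the 21 calves and 28.3 (27.6 to 29.1) in the 9. Of the 169 reads of miR-96 pooled over the 21 calves, 89 came from A93760 and A47858, and without these 2 calves the pooled ratio was 38.5 (30.8 to 48.7). The median over calves was 38.7 in the 19 of the 21 with a read of miR-96 and 28.7 in the 9. For miR-182 against miR-96, the pooled ratio was 265 (228 to 310) in the 21, 289 (232 to 365) without the same 2 calves, and 230 (224 to 236) in the 9. Here too, the pooled intervals do not cover the spread between calves.

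The ratio of miR-182 to miR-183 was set beside its ratios to 6 miRNAs of the pituitary and epithelial list. In the 9 calves above the gap, the SD of the log2 ratio was 0.106 to miR-183 and 0.224 to miR-96. Against miRNAs of the epithelial list, it was 0.202 for miR-429, 0.267 for miR-200c, 0.295 for miR-141 and 0.297 for miR-200a. For the endocrine miRNAs it was 0.488 for miR-375 and 1.02 for miR-7. Below the gap, the SD was 0.440 to miR-183, 0.851 to miR-429 and 1.56 to miR-375. These spreads are descriptions, and those of rarer miRNAs hold more counting error.

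**Figure D4:**
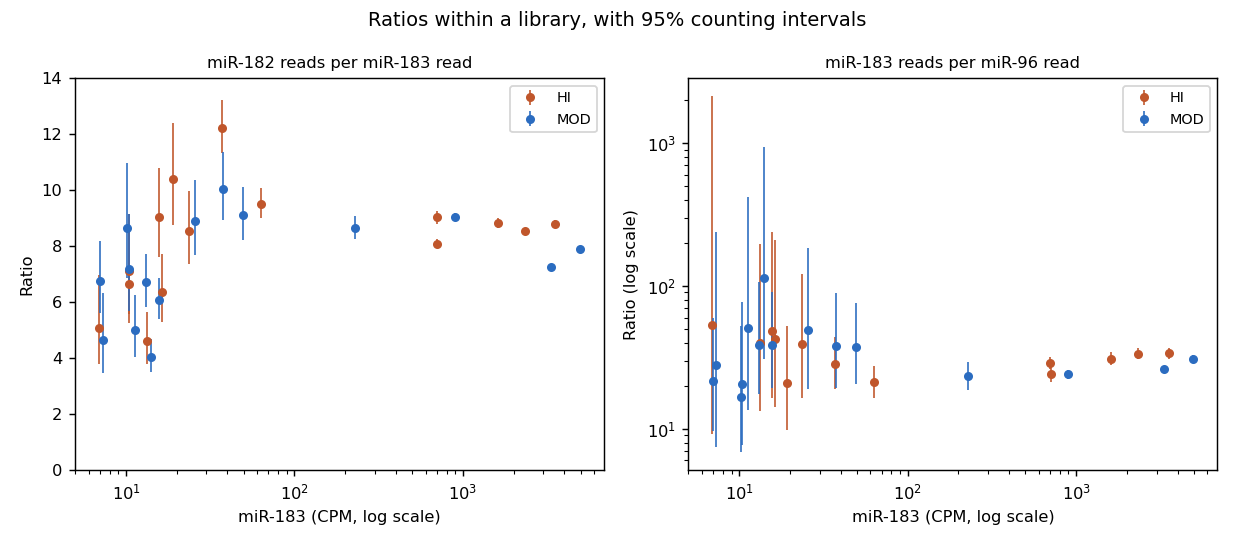
Reads of miR-182 per read of miR-183 (left) and of miR-183 per read of miR-96 (right, log axis) in each calf against the level of miR-183 (log axis), with 95% counting intervals and colour by diet; 2 calves with 0 reads of miR-96 are left out on the right. The left ratio runs from 4.04 to 12.2 below 64 CPM of miR-183 and settles between 7.25 and 9.04 above 200 CPM.

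Below the gap, the ratio of miR-182 to miR-183 was higher where the cluster was higher. Over the 21 calves, the log2 ratio correlated with the log2 level of miR-183 with Pearson's r = 0.664 (permutation p = 0.00088, adjusted p = 0.00132) and Spearman's rho = 0.610 (permutation p = 0.00391). Leaving out the 2 calves with the most extreme levels, r was 0.657. The level of miR-183 is also the denominator of the ratio. With the list score, which shares no miRNA with the ratio, r was 0.527 (permutation p = 0.0139, adjusted p = 0.0139) and rho was 0.557 (permutation p = 0.00994), and r was 0.502 without the 2 farthest calves. The adjustment covers 3 relations, of which that with miR-182 is not given, because miR-182 is the numerator of the ratio and a positive r is built in.

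Within depth classes these relations did not all hold. In the 15 shallower libraries below the gap, r with miR-183 was 0.693 (permutation p = 0.00445), and r with the list score was 0.421 (permutation p = 0.118). In the 6 deeper libraries, r with miR-183 was 0.650 (exact permutation p = 0.167) and -0.43 without A47858 and A93760, so that it rested on these 2 calves, and r with the list score was 0.847 (exact permutation p = 0.05). In the 16 calves with other than the lowest codes, r was 0.659 with miR-183 (permutation p = 0.00519) and 0.626 with the list score (permutation p = 0.00899). The 5 calves with the lowest codes below the gap were too few.

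The ratios were compared between the diets as differences of mean log2(CPM + 0.25). That of miR-182 to miR-183 was higher in HI by 0.17, that of miR-96 to miR-183 was lower by a difference of -0.24, and that of miR-182 to miR-96 was higher by 0.41. Two-sided permutation tests gave p = 0.252, 0.162 and 0.0785, and adjusted over the 3 ratios p = 0.252, 0.244 and 0.235. In the deeper libraries the ratio of miR-182 to miR-183 was higher in the 3 HI than in the 6 MOD calves by 0.61 (exact permutation p = 0.0476, not adjusted). In the shallower libraries the difference was -0.0016 (exact permutation p = 0.999), and whether the depth classes differ from each other was not tested. With a pseudocount of 1 in place of 0.25, the difference in the ratio of miR-182 to miR-96 was 0.43 (permutation p = 0.261). Below the gap, miR-96 had a median of 0.384 CPM, which is close to the pseudocount. On log2(CPM + 0.25), that ratio reached an unadjusted p under 0.05 when any of 5 calves was left out, namely A81983, A92928, A12937, A57826 or A61973, at log2 differences of 0.48, 0.50, 0.47, 0.48 and 0.48 with permutation p = 0.0371, 0.0293, 0.0483, 0.0427 and 0.0435.

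The members varied together from calf to calf within each side of the gap. Because the calves formed separate clusters, no correlation of members over all 30 is given. In the 21 calves below the gap, Pearson's r was 0.965 for miR-182 with miR-183, 0.834 for miR-182 with miR-96 and 0.816 for miR-183 with miR-96, with Spearman's rho of 0.905, 0.839 and 0.730. Each Pearson p was 1e-05 (permutation test, the smallest that it can give), and the p of rho was 1e-05, 1e-05 and 0.00025. After adjustment over the 3 pairs on both sides of the gap, each Pearson p was again 1e-05 (permutation test). Leaving out the 2 calves with the most extreme levels, r was 0.95, 0.747 and 0.687. In the 9 calves above the gap, r was 0.998, 0.989 and 0.994 (exact permutation p = 2.76e-06, 8.27e-06 and 8.27e-06), rho was 1, 0.983 and 0.983 (exact permutation p = 5.51e-06, 4.96e-05 and 4.96e-05), and r was 0.994, 0.971 and 0.983 without the 2 farthest calves.

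The relation was then taken within the divisions by depth and by animal code below the gap. In the 15 shallower libraries, r was 0.966, 0.753 and 0.747 for the 3 pairs in the same order (permutation p = 1e-05, 0.00134 and 0.0014). In the 16 calves with other than the lowest codes, r was 0.962, 0.833 and 0.813 (permutation p = 1e-05, 7e-05 and 0.00021). In the 6 deeper libraries, r was 0.964, 0.95 and 0.897 (exact permutation p = 0.00417, 0.00972 and 0.0153), but without A47858 and A93760 it was 0.765, 0.521 and -0.12, so that it rested on these 2 calves.

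The miRNAs most like the cluster over the 30 calves were those of the epithelial miR-200 family. By Pearson's r of log2 levels with the mean of the 3 members, the 10 highest of the 474 other miRNAs tested were miR-429 (0.985), miR-200a (0.978), miR-200c (0.974), miR-141 (0.970), miR-199a-3p (0.935), miR-199c (0.935), miR-199b (0.932), miR-31 (0.931), miR-199a-5p (0.927) and miR-375 (0.905). The first 4 belong to the miR-200 family, which maintains the epithelial state, the miR-199 miRNAs are known from fibroblasts and other mesenchymal cells, and miR-375 is abundant in endocrine cells of the pancreas and pituitary. miR-199a-3p and miR-199c had the same lowest, median and highest level. The median r over the 474 miRNAs was -0.068. These values have no test, since they rest largely on the 9 calves above the gap and all share the same libraries. By Spearman's rho, 9 of the 10 were again among the highest 10.

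Below the gap the order changed, and 4 of the 10 were among the highest 10 there. miR-429 (r = 0.755 over 21 calves) and miR-200a (0.676) were again the first 2, with miR-200c (0.552) and miR-31 (0.487) the others that remained. In these calves miR-429 was low, at 0.131 to 4.33 CPM with a median of 1.02, as was miR-96, a part of the mean. miR-141 was at 0.470 and ranked 11th. For miR-199a-3p r was 0.379, and for miR-375 it was 0.054, which ranked 187th. In the 9 calves above the gap, r was 0.986 for miR-429 and 0.925 for miR-375. miR-375 itself lay between 75.7 and 1268 CPM below the gap and between 3192 and 47575 CPM above it, so that below the gap its level was often above that of miR-182, at a median of 606 against 88.0 CPM.

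**Figure D5:**
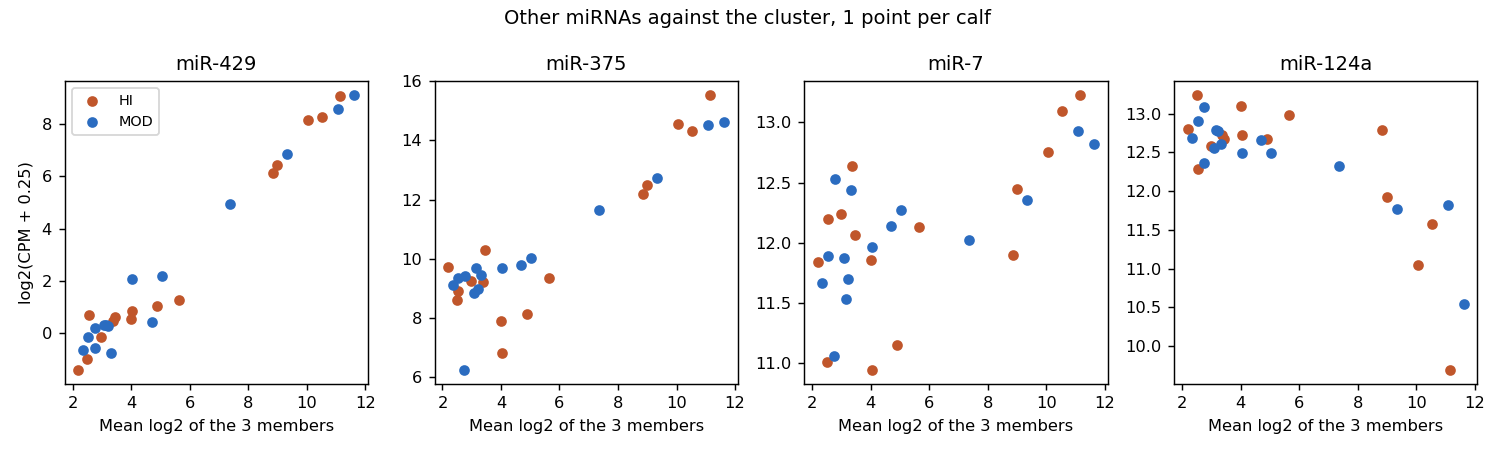
log2(CPM + 0.25) of miR-429, miR-375, miR-7 and miR-124a against the mean log2 level of the 3 members, with 1 point per calf and colour by diet. miR-429 follows the cluster on both sides of the gap (r = 0.755 in the 21 calves below it, where miR-429 lay at only 0.131 to 4.33 CPM). miR-375 and miR-7 do so above the gap but not below it (r = 0.054 and 0.073), and miR-124a is lower where the cluster is highest.

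The miRNAs least like the cluster were miR-760-3p (r = -0.863), miR-1296 (-0.836), miR-323 (-0.817), miR-433 (-0.797) and miR-6123 (-0.794). All 5 were lowest in the same HI calf, A37824, and their levels ranged from 2.43-fold (miR-6123) to 3.64-fold (miR-760-3p) between calves, narrow ranges beside that of the cluster.

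As the cluster is known from sensory and pituitary tissue, its levels were set beside miRNAs that mark the cells such a dissection could hold. The summed level of the 7 pituitary and epithelial miRNAs was 2106 to 65952 CPM in the HI calves and 2218 to 40009 CPM in the MOD calves. It was 2106 to 7009 CPM in the 21 calves below the gap and 7797 to 65952 CPM in the 9 above it. No list miRNA was at 0 in the 9 calves. miR-200b was at 0 in 1 of the 21 calves and at 3 reads or fewer in 8. miR-7, which is abundant in pituitary but also in hypothalamic neurons, lay between 3810 and 9594 CPM in the 9 calves and between 1969 and 6379 CPM in the 21, and these ranges overlapped. Of the 6 list miRNAs tested, 0 passed the thresholds for diet, 6 had a higher log2 mean in HI, as did 235 of all 476 tested, and the median log2 difference was 0.59, against -0.002 over the 476. The part of pituitary or epithelial tissue in the levels of the cluster was not tested.

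Neuronal miRNAs reached lower levels in the calves with much of the cluster, with ranges that overlapped. miR-124a and miR-124b had identical values in every library, so that 1 of them was counted. The summed level of the 7 neuronal miRNAs was then 49884 to 88539 CPM below the gap and 17944 to 60965 CPM above it. miR-124a, which marks neurons, lay between 5013 and 9705 CPM in the 21 calves and between 826 and 7058 CPM in the 9, with the lowest level in A37824. Its r with the cluster over the 30 calves was -0.794, while in the 21 calves alone it was -0.02. miR-9-5p, another neuronal miRNA, lay between 34503 and 73041 CPM in the 21 and between 11292 and 47439 CPM in the 9. miR-129 went the other way over the 30 calves, with an r of 0.322, but in the 21 calves alone its r was -0.157. These miRNAs mark neurons in general and not the ARC. Of the 7 neuronal miRNAs, 0 were called for diet, and their median log2 difference was -0.15.

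The remaining lists differed in how closely their miRNAs followed the cluster. Among vessel and fibroblast miRNAs, miR-199a-3p lay between 57.4 and 203 CPM below the gap and between 224 and 1420 CPM above it, with an r of 0.935 over the 30 calves. miR-214 (r = 0.903) lay between 1.33 and 7.36 CPM and between 8.13 and 52.4 CPM, and neither overlapped across the gap. The smooth muscle miRNA miR-143 (r = 0.609) overlapped, at 34310 to 184692 CPM with a median of 86998 below the gap and 43894 to 313867 CPM with a median of 189730 above it. For miR-145, also of smooth muscle, r was 0.434, and the endothelial miR-126-3p had an r of -0.048 with the cluster. Of the 7 choroid plexus and ependymal miRNAs, r over 30 calves lay between -0.187 (miR-204) and 0.186 (miR-449a). In the 9 calves above the gap, r was -0.834 for miR-34b and -0.838 for miR-34c. The others lay between -0.364 (miR-449c) and -0.026 (miR-211) there. Of the blood miRNAs, r was 0.316 for miR-451, 0.232 for miR-144 and -0.225 for miR-486. The oligodendrocyte miRNA miR-338 had an r of -0.454, and miR-219 did not pass the filter. miR-122 of liver had 3 reads or fewer in 20 calves, miR-1 of muscle had 3 or fewer in all 30, and miR-206 had 0 reads in all 30. miR-133a of muscle (r = 0.559) lay between 21.3 and 75.9 CPM in the 21 calves, with a median of 42.2, and between 33.2 and 110 CPM in the 9, with a median of 77.3. In the 21 calves alone, r was 0.379 for miR-199a-3p, 0.21 for miR-214, -0.023 for miR-143 and -0.127 for miR-145. It was -0.058 for miR-133a and 0.103 for miR-338 there, so that the r over 30 calves rested largely on the gap. Over these lists, 0 miRNAs were called for diet.

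miR-1271, chosen after its values were seen, is a miRNA of another locus that is known to share its seed region with miR-96, and it is also known from earlier results to differ along the animal codes. It was far more abundant than miR-96 below the gap and did not follow it. Its level was 59.4 to 155 CPM in the 21 calves below the gap and 67.3 to 160 CPM in the 9 above it, against 0 to 2.99 and 9.76 to 161 CPM for miR-96. By animal code, it was 104.9 to 160 CPM for the 9 lowest codes and 59.4 to 104.2 CPM in the others, 2 sets that nearly met. As miR-1271 was chosen with its values known, this parting is a description and not a test. The share of all miRNAs that part by code was not counted. For miR-96, the levels were 0 to 105 CPM for the lowest codes and 0 to 161 CPM for the others.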

How the data were processed

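Small RNA libraries of the ARC from 15 HI and 15 MOD calves were used, with groups taken from the labels. After adapter removal with Cutadapt, the authors retained reads between 15 and 28 bases long, discarded other short RNAs and counted known bovine miRNAs with miRDeep2 against ARS-UCD1.2. The submitters' notes list FastQC 0.11.8, cutadapt 2.6, R 3.4 and edgeR 3.5. The labels name a stranded RNA kit and the methods a small RNA kit. The signal values that the authors deposited are decimals in the form of CPM over TMM-scaled library sizes. Columns of no sample numbered 0.

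Reads were recovered from the smallest step of each library. Of values under 200 reads, 94.5% to 97.9% were whole within 0.02. The main test was limma 3.58.1 (lmFit and eBayes with a trend) on log2(CPM + 0.25), after filterByExpr of edgeR 4.0.16, which kept 476 miRNAs. Fold changes are on this scale, and those of low miRNAs depend on the pseudocount. The pseudocount was worth 2.08 reads at the median depth. Alternatives were other pseudocounts, scalings and filters, edgeR's quasi-likelihood test, DESeq2 1.42.0, added terms and calves left out. The code was tested on simulated data. Permutation tests were two-sided with 100000 resamples, or exact.

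The members and lists were chosen with earlier results of these data known. Named miRNAs were the members, list miRNAs, and the 10 most and 5 least like the cluster. A rule that compares seed sequences was not used here. miR-1271 was named after its values were seen, and miR-2419-3p as the 1 miRNA called by an alternative. edgeR's test on the recovered reads called 0 miRNAs. Whether spread between calves includes a technical part was not tested, as each calf had 1 library. Software was R 4.3.3 and Python 3.11.15 with scipy 1.17.1.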

Additional observations from a re-analysis of the deposited data

How the results depend on the processing

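In limma, miR-182 and miR-183 kept a higher log2 mean in HI under each scaling, pseudocount, filter and added term tried, and 0 members passed the thresholds under any of 15 alternatives or with any calf left out. Leaving out 1 calf gave log2 differences of 0.38 to 1.27 for miR-182, 0.22 to 1.09 for miR-183 and 4.23e-05 to 0.81 for miR-96. The sign reversed for miR-183 in edgeR (-0.066) and DESeq2 (-0.11), and for miR-96 in edgeR (-0.24), DESeq2 (-0.26), with the code term (-0.053), with the list score term (-0.19) and without the 9 calves above the gap (-0.015). In edgeR fits chosen after seeing the data, the values were -0.22 for miR-182, -0.39 for miR-183 and -0.55 for miR-96 without A31979, whose read step was less certain, and 0.20, 0.036 and -0.15 without the 3 libraries with under 95% whole values. The cause was not tested.

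The number of all tested miRNAs called was 0 to 1 with 1 calf left out, 1 without A77860 or without A97854, and 1 in DESeq2 with the filter, each time miR-2419-3p. Of the ratios, miR-182 to miR-183 was -0.0016 in the shallower libraries and 0.61 in the deeper ones. With 1 calf left out it ranged from 0.11 to 0.22, that of miR-96 to miR-183 from -0.30 to -0.18 and that of miR-182 to miR-96 from 0.32 to 0.50. The number of the 10 most similar miRNAs shared was 4 below the gap. Depth limits miR-96 most, since 3 reads are worth 0.138 to 0.558 CPM. No paired analysis was possible because each calf belongs to 1 diet and the labels give no number that the diets share.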
